A study of Homo sapiens with 68 samples.

Results

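The subject is the hnRNP C immunoprecipitation from HEK293T cells that were not irradiated with ultraviolet (UV) light, set against the same immunoprecipitation from crosslinked cells. It covers 4 of the 68 libraries of the series, chosen by their titles, and 1130530 of its 15800601 peaks. HEK293T is an established line of human embryonic kidney cells. The group without crosslinking (noUV_hnRNPc) has 2 libraries, labelled with 50000 cells and 0.005 U of RNase. The crosslinked group (hnRNPc_10k) has 2 libraries, labelled with 10000 cells and 0.001 U of RNase. Both groups used the antibody named 4F4 against hnRNP C1/2, and in both the complexes were cut from a gel (PAGE, polyacrylamide gel electrophoresis). The amount of RNase per cell is therefore the same in both groups, but cell number, total RNase and crosslinking change together and cannot be told apart within these 4 libraries. The protocol text describes irradiation for every sample, so the absence of crosslinking is taken from the titles and the series description. Nothing states whether replicates came from separate cultures, so spreads and p-values may reflect technical variation only.

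In TLC-CLIP, as in other CLIP methods, irradiation ties a protein covalently to the RNA it touches. The lysate is treated with RNase, the protein is immunoprecipitated, and the attached RNA fragments are sequenced. Without irradiation the covalent bond is missing, and such libraries hold fragments that co-purify by other means. hnRNP C is an abundant nuclear protein that packages nascent transcripts and prefers runs of uridine, many of which lie in introns, where it is known to keep cryptic splice sites from being used.

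A peak is a stretch of a gene in which a peak caller found more reads than it expected. Each deposited list gives the position of every peak, an Ensembl gene identifier, a p-value and a number at the end of the peak name. That number was never under 4 and is taken here as the reads in the peak. Positions are on hg19. The lists do not pair gene identifiers with names, and none of the identifiers could be matched to a name here, so regions are given by position and few identifiers are printed. For the same reason the cell line's marker genes could not be looked up. The number of sequenced reads is unknown, and a gene or site that is not listed may still have had reads. Same-strand peaks of the 4 libraries with gaps under 30 nt were joined into sites. Below, "kept" means listed by all 4 libraries, "new" means listed by both libraries without crosslinking and neither crosslinked one, and "lost" means the opposite.

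The libraries without crosslinking, labelled with 50000 cells, did not give shorter lists than the crosslinked ones labelled with 10000 cells. Replicates 1 and 2 listed 299616 and 299307 peaks without crosslinking, and 264496 and 267111 peaks with it. The groups did not overlap, and the log2 difference of the means was 0.17. Without PAGE, where both states were labelled with 50000 cells, the lists without crosslinking were the shorter ones. There the 2 libraries together listed 466181 peaks without crosslinking (noUV_noPAGE_hnRNPc) and 913133 with it (hnRNPc_50k_noPAGE). A preparation batch, if any, cannot be told apart from crosslinking in that pair, as given further below. The smallest two-sided p that an exact permutation test of 2 against 2 libraries allows is 0.333, so single values of this kind are compared by whether the libraries overlap. The median peak width was 56 and 54 nt without crosslinking and 55 nt in both crosslinked libraries, which is no difference beyond the replicates. The numbers read as reads summed to 3541577 and 3449074 over sites without crosslinking and to 2557491 and 2558550 with it. The 100 strongest sites held a larger share of listed reads without crosslinking, at 8.43% and 6.97% against 5.13% and 5.00% with it. Mitochondrial sites are included in these shares. Joined within each library alone, mitochondrial sites held 6.52% and 4.12% of reads without crosslinking and 2.15% and 2.13% with it. Whether reads were gathered more tightly outside the mitochondrial genome was not tested.

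Most genes stayed listed without crosslinking, while most sites did not. Of 15633 gene identifiers listed by at least 1 of the 4 libraries, 10743 (68.7%) were kept, 760 (4.86%) were new and 476 (3.04%) were lost. The other 3654 were listed in some other combination. Read from the crosslinked side, 92.7% of the 11595 genes listed by both crosslinked libraries were listed by both libraries without crosslinking, and 4.11% by neither. Of 665172 sites, 26648 (4.01%) were kept, 43373 (6.52%) were new and 47335 (7.12%) were lost. Of the 104987 sites in both crosslinked lists, 25.4% were in both lists without crosslinking, 29.5% in 1 and 45.1% in neither.

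This has to be read against how well replicates shared sites, because 66.8% of all sites were in exactly 1 list. Between the crosslinked replicates, 44.7% and 45.3% of each library's sites were found in the other. Between the replicates without crosslinking the shares were 34.9% and 34.4%. Across the groups, 25.4% to 30.9% of a crosslinked library's sites were found in a library without crosslinking, and 22.6% to 27.5% the other way. Sharing across groups was thus below sharing within either group in all pairs of libraries. For genes the cross-group shares were 85.7% to 91.0% and the within-group shares 91.8% to 92.6%.

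Genes kept their listing although their sites changed. Of the kept genes, 38.0% had no site that all 4 libraries listed, and 64.8% had both a new and a lost site. Kept genes held 97.9% of the new sites and 98.8% of the lost sites. Their share of all sites was not computed, so these 2 shares have no background. Kept genes had a median of 13.5 sites without crosslinking and 11 with it. New genes had 1.5 and lost genes 1 in the group that listed them. A lost site lay a median of 231 nt from the nearest site without crosslinking on its strand, and a new site a median of 262 nt from the nearest crosslinked site. Within 1000 nt of such a neighbour were 85.4% of lost and 81.0% of new sites. No distance could be under 30 nt, because closer peaks were joined. These distances were not set against a background, so whether they are shorter than the density of sites alone would give was not tested. Among the 4854 genes with at least 100 listed reads in every library, the strongest site held a median of 7.78% and 7.11% of a gene's reads without crosslinking and 7.35% and 7.20% with it, so the groups overlapped in this measure.

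Sharing rose with site strength, but not to completeness. Sites of both crosslinked libraries were ordered by the reads of the lower replicate. Of those with 4 to 7 reads, 14.6% were in both lists without crosslinking. The share was 44.3% at 16 to 31 reads and 70.5% at 64 to 127 reads. At 128 reads or more it was 65.0% (132 of 203 sites), and 39 of these strongest sites were in neither list without crosslinking. In the other direction the share rose from 15.6% at 4 to 7 reads to 81.0% at 128 or more (472 of 583 sites), with 60 sites in neither crosslinked list.

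**Figure D1:**
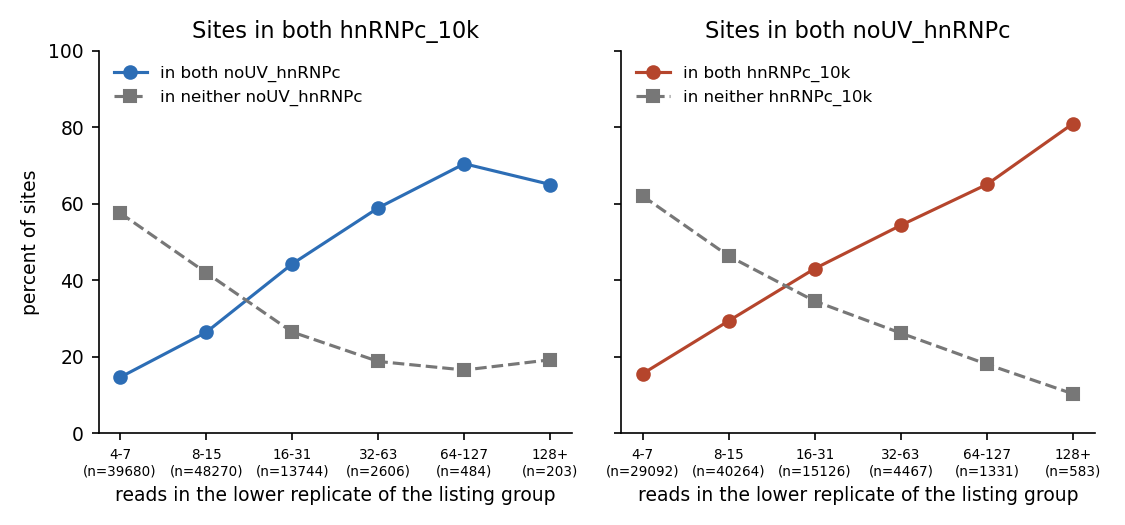
Percent of sites (y axis) listed by both (solid) or neither (dashed) library of the other group, by the number of reads in the lower replicate of the group that lists them (x axis, with the number of sites). At 128 or more reads, 65.0% of crosslinked sites were in both lists without crosslinking and 81.0% of sites without crosslinking were in both crosslinked lists.

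The strongest kept sites show that staying listed is not the same as staying level. The 5 kept sites whose lowest library was highest, 1 per gene, lay on the mitochondrial genome (2 sites), on chromosome X and on chromosome 11 (2 sites). The first, M:2201-2445 on the plus strand, had 28643 and 14145 reads without crosslinking and 13777 and 14642 with it. The ranges of the groups overlapped there. The fourth, M:1261-1500 on the plus strand, had 21471 and 19825 reads without crosslinking and 1381 and 1357 with it. Scaled to reads per 1000000 listed reads (RPM), that was 6063 and 5748 against 540 and 530, and the groups lay far apart. The third, 11:62609121-62609282 on the minus strand, is nearly the whole of a 189-nt gene extent and had 5967 and 15149 reads without crosslinking against 1842 and 2037 with it. Here the groups did not overlap, but the replicates without crosslinking differed by more than 2-fold. The 937-nt site 11:65268338-65269274 on the plus strand had 435 and 465 RPM without crosslinking and 443 and 380 with it, an overlap.

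The clearest exchange of sites took place within 1 gene on the minus strand of chromosome X, whose listed positions ran from 73040560 to 73072550. It had 64 sites, of which 23 were kept, 6 were new and 13 were lost. The strongest new site of all, X:73047296-73047819, lay in it, with 2430 and 2167 reads without crosslinking and no listing in either crosslinked library. The strongest lost site of all, X:73043295-73043627, lay in it too, with 1793 and 1681 reads with crosslinking and no listing without it. Over the gene as a whole the libraries without crosslinking had 12774 and 19104 RPM and the crosslinked ones 17549 and 18206. The groups overlapped, and the log2 difference was -0.19 (SE 0.26; adjusted p from limma 0.647). The new site was listed by both noUV_noPAGE_hnRNPc libraries and by neither hnRNPc_1k nor hnRNPc_50k_noPAGE library, which were crosslinked. The lost site had the opposite pattern in these 6 libraries. However, it was also listed by both noUV_hnRNPA1 libraries, which were not crosslinked, and by both libraries titled Background_75-100kDa. The new site was listed by none of those, but by both noUV_hnRNPI and both noUV_RBFOX2 libraries.

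The next 3 lost sites also lay in kept genes. X:107974521-107974681 on the minus strand had 1107 and 890 reads with crosslinking. Its gene, listed over 10602 nt, was lower without crosslinking as a whole, at 1724 and 1406 against 4171 and 3835 RPM (log2 difference -1.36, SE 0.20, limma adjusted p 0.0383). The short site 11:65266714-65266750 on the plus strand had 283 and 297 reads with crosslinking and lay in the same gene as the 937-nt kept site above. That gene had 20 sites, of which 10 were kept, 3 lost and none new, and its summed level was 3329 and 3219 RPM without crosslinking and 3703 and 3571 with it. The groups did not overlap, but the difference did not pass the test (log2 difference -0.15, SE 0.17, limma adjusted p 0.572). The site 22:38887567-38887640 on the minus strand had 313 and 257 reads with crosslinking, in a gene whose level did not differ beyond its error (log2 difference -0.07, SE 0.17, limma adjusted p 0.817). At 16:67355592-67355663 on the minus strand, 255 and 221 reads were listed with crosslinking. Peaks of 2 gene identifiers shared this last site, 1 of them of a kept and 1 of a lost gene, and reads of overlapping genes cannot be told apart. The lost sites X:107974521-107974681 and 16:67355592-67355663 were both listed by replicate 1, but not replicate 2, of noUV_noPAGE_hnRNPc.

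Among the other leading new sites, M:12848-12927 on the plus strand had 320 and 333 reads without crosslinking. It was the only new site on the mitochondrial genome. The new site 11:65199905-65200051 on the plus strand had 311 and 282 reads and lay in a gene of 87 sites, with 15 kept, 21 new and 7 lost. That gene as a whole had 1807 and 1768 RPM without crosslinking and 1254 and 1361 with it. The groups did not overlap, but the difference did not pass the test across all genes (log2 0.45, SE 0.17, limma adjusted p 0.174). The new sites 17:56082438-56082812 on the minus strand (313 and 312 reads) and 14:23793347-23793498 on the plus strand (286 and 312 reads) each held peaks of 2 gene identifiers. Unlike the new sites on chromosomes X and 11, both were listed by both crosslinked hnRNPc_50k_noPAGE libraries.

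New and lost genes differed in how their reads were spread. At least 50 reads in both libraries were reached by 25 new and 19 lost genes. These 25 new genes had a median of 5.5 sites, and 14 of them had 5 or more sites in both libraries. Of the 19 lost genes, 17 had a single site in both libraries, and none had 5 or more. Over all lost genes 78.4% had 1 site in both crosslinked libraries, and over all new genes 38.3% had 1 site in both libraries without crosslinking. Most of these genes were weakly listed, with a median of 12.5 reads for new and 8 for lost genes. The number of lost genes depended on this: only 113 were lost when 2 peaks were needed to list a gene, against 709 new ones. With the same number of peaks taken from each list, new and lost genes were nearly equal in number, at 588 and 580.

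By the rule for named genes, the highest differences among those that passed the test are given for 2 genes in each direction. ENSG00000010278, listed at 12:6309535-6347334 on the plus strand, had 7 sites in each library without crosslinking, with 91 and 125 reads, and was not listed with crosslinking. ENSG00000251705 is a 78-nt stretch at Y:10037818-10037895 on the plus strand, with 1 site of 104 and 223 reads without crosslinking and no listing with it. ENSG00000201201, an 81-nt stretch at 16:67355589-67355669 on the minus strand, was not listed without crosslinking and had 255 and 221 reads with it. It covers the lost site on chromosome 16 described above. ENSG00000164123, listed at 4:159860903-159908747 on the minus strand, was not listed without crosslinking and had 1 site of 228 and 174 reads with it. No fold is given for these, since an unlisted gene has no measured level. Their adjusted p-values are left out too. These genes reached the minimum reads for the test only through the group that listed them, so passing it adds nothing to the listing.

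For levels, the reads of a gene's sites were summed, scaled to RPM within each library and compared as log2(RPM + 1) with limma over genes with a mean of at least 10 listed reads. Of 11455 genes tested, 779 (6.8%) were higher and 226 (1.97%) lower without crosslinking at an adjusted p below 0.05. Among the 10568 kept genes tested, 581 were higher, with a median log2 difference of 1.85, and 146 were lower, with a median of -1.52. The median over all genes tested was 0.06. A gene that did not pass is not shown to be equal between groups. With each library scaled to its median gene in place of its listed reads, this median moved to -0.11, and 621 genes were higher and 297 lower. Called genes that only 1 group listed had to differ, because only that group carried them over the minimum. No gene passed when any of the 4 libraries was left out, although 2443 to 2760 genes then had an unadjusted p below 0.05, against 3540 with all 4.

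**Figure D2:**
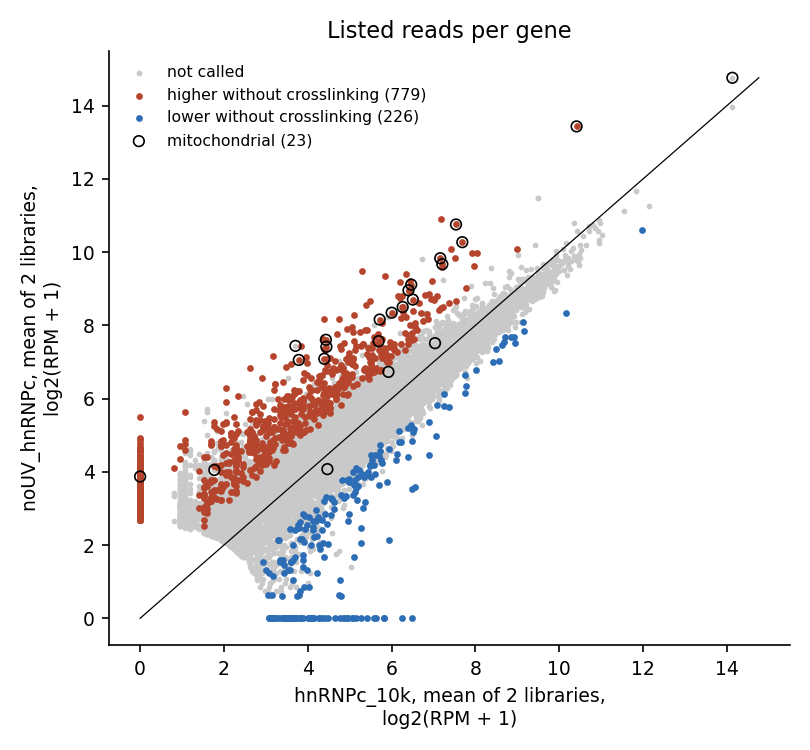
Each point is 1 of 11455 genes; x and y axes are the mean level of the 2 crosslinked and the 2 libraries without crosslinking, as log2(RPM + 1). Genes that passed limma's test are red (779 higher without crosslinking) or blue (226 lower), black circles mark the 23 mitochondrial genes, points at 0 were not listed in that group, and the line marks equal levels.

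Single sites were tested in the same way. Of 52140 sites tested, 6654 (12.8%) were higher and 3575 (6.86%) lower without crosslinking. Most of these were new or lost sites, which had to differ once they passed the minimum. Of the 22318 kept sites tested, 620 (2.78%) were higher and 237 (1.06%) lower, and the median log2 difference was -0.17. No site passed without either of the crosslinked libraries, where 16435 and 15932 sites had an unadjusted p below 0.05. Without replicate 1 of the other group 6358 sites were higher and 7117 lower, and without its replicate 2 the counts were 3896 and 3562. The excess of higher over lower sites thus turned without that replicate 1.

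Genes with a short listed extent were higher without crosslinking more often than those with a long one. As no annotation of the build was at hand, the extent of a gene was taken from its outermost peaks over all 68 lists of the series. A long gene with few peaks can thus fall in a short class. Of the 284 tested genes with an extent under 1 kb, 27.1% were higher and 13.0% lower without crosslinking. From 1 to 10 kb the shares were 16.6% and 2.30% of 1696 genes, from 10 to 100 kb 5.16% and 1.70% of 7050, and over 100 kb 2.31% and 1.24% of 2425. The background over all genes was 6.8% higher and 1.97% lower. These shares include genes that only 1 group listed: 191 of the 208 new genes tested were higher and all 69 lost genes tested were lower. Of the 1129 listed genes under 1 kb, 153 were kept, 131 new and 148 lost. Calls among kept genes alone were not split by extent, so the shares partly restate which genes were new or lost. Median log2 differences ran 0.98, 0.61, 0.04 and -0.09 from the shortest to the longest class. With median scaling the third of these turned to -0.13. When sites were counted in place of reads, the first became -0.13 and the last 0.09. Many of the shortest genes hold a single site, so a count of sites has little room to differ there.

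**Figure D3:**
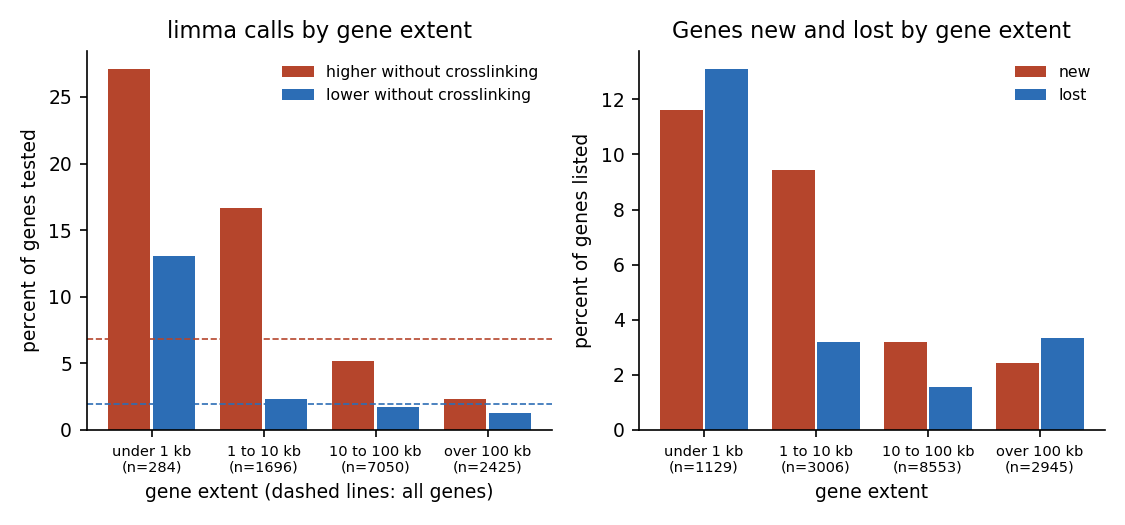
Left, percent of tested genes that limma called higher (red) or lower (blue) without crosslinking, by gene extent, with dashed lines for all genes (6.8% and 1.97%). New and lost genes are included there. Right, percent of listed genes that were new or lost; the shortest class had the largest shares of both, and new genes outnumbered lost ones most clearly from 1 to 10 kb (284 against 96).

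Genes with an extent under 10 kb also held more of each library's reads without crosslinking. For this and the next shares, sites were joined within each library alone, and the percent is of the reads of those sites. The share was 13.0% and 11.8% without crosslinking and 6.65% and 6.35% with it, mitochondrial genes included. Leaving the mitochondrial genome out of both parts of the ratio, it was 6.88% and 7.997% against 4.60% and 4.31%. The groups did not overlap either way. By chromosome, the largest share of genes higher without crosslinking outside the mitochondrial genome was on chromosome 19, with 83 of 707 tested genes (11.7%) and a median log2 difference of 0.31. Chromosome 11 followed with 61 of 569 (10.7%). On chromosome 13 the median was -0.18, the lowest among the autosomes, chromosome X and the mitochondrial genome.

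The mitochondrial genome, which is transcribed inside mitochondria while hnRNP C is mainly nuclear, took up 6.52% and 4.12% of the reads of each library's own sites without crosslinking and 2.15% and 2.13% with it. The groups did not overlap, although the replicates without crosslinking were far apart. Of the 23 mitochondrial genes tested, 16 (69.6%) were higher and none lower by limma, compared with 6.8% and 1.97% of all genes tested. The median log2 difference was 2.53. On the plus strand 15 of 19 genes were higher, and on the minus strand 1 of 4. The region with the most reads, 1673 to 3203 on the plus strand, was not among them. It had 37587 and 17904 RPM without crosslinking and 18444 and 17399 with it (log2 difference 0.53, SE 0.41, limma adjusted p 0.427). The region from 651 to 1566 on the plus strand had 10728 and 11379 against 1420 and 1304 (log2 difference 3.02, SE 0.17, limma adjusted p 0.00637). With mitochondrial peaks left out, 805 other genes were higher and 212 lower.

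Reads without crosslinking lay more often near the 3' end of genes. In genes with an extent of at least 10 kb, the last 10% of the extent held 18.1% and 18.6% of listed reads without crosslinking and 9.92% and 9.41% with it. The groups did not overlap and differed by far more than their replicates. By sites rather than reads, 16.4% of the 41365 new sites lay in the last 10%, against 6.87% of the 46067 lost and 13.9% of the 25268 kept sites. The difference between new and lost was 9.51 percentage points. It was 21.8 among peaks with a p-value below 1e-05, and 5.08 or 5.29 when 1 or the other library without crosslinking was left out. The first 10% held 14.5% of new, 15.6% of lost and 16.8% of kept sites. The share of the middle of the gene was 77.5% among lost and 69.1% among new sites. What kind of sequence these sites hold (exon, intron or untranslated region) was not analysed here.

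The read shares were then set beside those of 3 other hnRNP C groups, which differ in cell number and PAGE. The crosslinked hnRNPc_1k libraries (1000 cells, 0.0001 U of RNase, with PAGE) had 10.2% and 9.69% of reads in the last 10%. Without PAGE, 50000 cells and 0.005 U were used in both states. There the last 10% held 19.0% and 17.2% without crosslinking (noUV_noPAGE_hnRNPc) and 10.4% and 10.3% with it (hnRNPc_50k_noPAGE). Genes under 10 kb outside the mitochondrial genome held 8.08% and 8.54% against 4.21% and 4.14% of nuclear reads in that pair of groups. The mitochondrial share was 7.60% and 4.43% against 3.53% and 3.49%. The libraries of that pair did not overlap in any of the 3 shares, with 2 libraries a group. The accessions of hnRNPc_50k_noPAGE lie in a separate run from those of the other 4 groups, so a preparation batch behind this, if any, cannot be told apart from crosslinking in that pair. These shares were not computed for the crosslinked hnRNPc_50k_lowRNase group, which matches noUV_hnRNPc in cell number, RNase and PAGE by its labels.

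**Figure D4:**
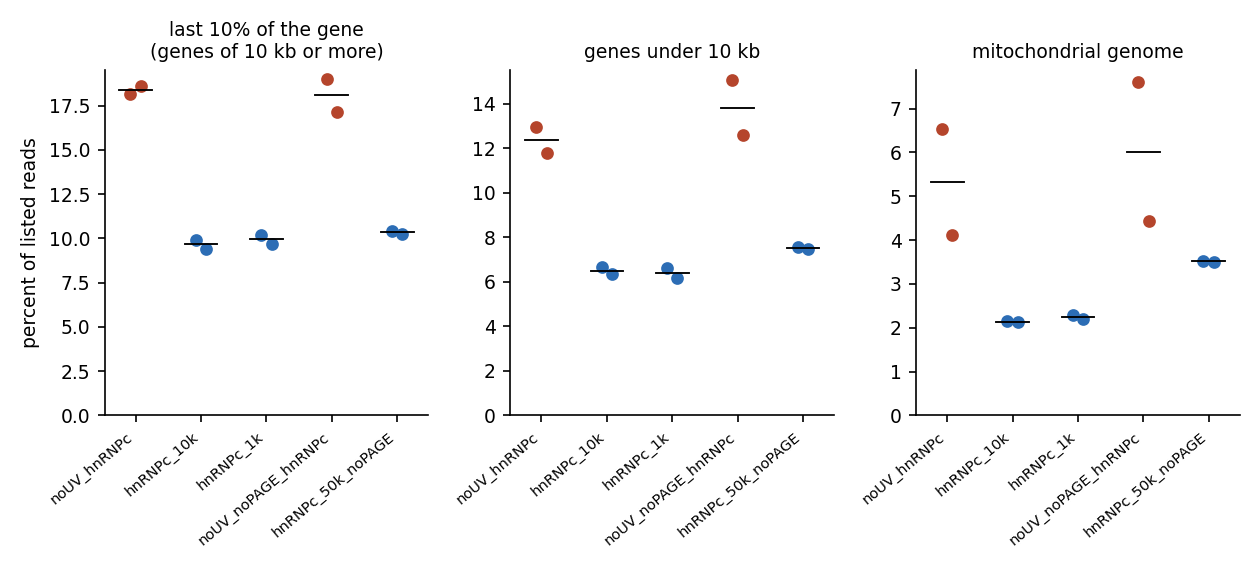
Percent of listed reads per library (points; black lines are means of 2 libraries) in the last 10% of genes of 10 kb or more, in genes under 10 kb (mitochondrial genes included) and on the mitochondrial genome, in hnRNP C groups without crosslinking (red) and with it (blue). The red points lie above the blue ones in all 3 panels, and the mitochondrial share varied most between replicates without crosslinking. The crosslinked hnRNPc_50k_lowRNase group is not drawn.

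The kept, new and lost sites were then looked up in lists that had no part in defining them. For each set the share overlapped by at least 1 nt on the same strand is given as the mean of 2 libraries, for sites with at least 32 reads in each library that defined them. These were 1227 kept, 1469 new and 608 lost sites. As a background the sites were moved by 1000 nt. The crosslinked hnRNPc_1k libraries listed 97.3% ± 0.288 (SD, n = 2) of kept and 94.7% ± 1.28 (SD, n = 2) of lost sites, but 14.1% ± 0.385 (SD, n = 2) of new sites. For new sites 21.4% were found after moving them. New sites were chosen as unlisted in hnRNPc_10k and moved sites were not. A crosslinked list can therefore fall below this background through the choice of sites alone. The noUV_noPAGE_hnRNPc libraries listed 94.8% of kept and 90.3% ± 4.24 (SD, n = 2) of new sites, but 10.7% ± 2.56 (SD, n = 2) of lost sites, with 19.7% after moving those. Lost sites were chosen as unlisted without crosslinking, so the same limit holds for them in lists without crosslinking. Like the libraries without crosslinking here, noUV_noPAGE_hnRNPc was labelled with 50000 cells and 0.005 U of RNase, so these overlaps do not separate crosslinking from cell number and RNase.

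At equal cell number and RNase to the libraries without crosslinking, the crosslinked hnRNPc_50k_noPAGE libraries listed 80.3% ± 0.465 (SD, n = 2) of the lost and 44.9% ± 0.915 (SD, n = 2) of the new sites of this strength. Their lists are longer (913133 peaks in 2 libraries, against 384273 for hnRNPc_1k), and 29.7% and 29.3% were found after moving the sites. Taking all sites regardless of strength, these libraries listed 45.1% of lost and 35.0% of new sites, with 17.5% and 17.4% after moving. The hnRNPc_1k libraries listed 41.7% of all lost and 7.43% of all new sites, with 10.0% and 8.73% after moving. The crosslinked hnRNPc_50k_lowRNase group matches the libraries without crosslinking in cell number, RNase and PAGE by its labels. Like hnRNPc_50k_noPAGE it lies in the separate run, so a preparation batch, if any, cannot be told apart from crosslinking here either. Its replicates stood far apart and are given singly. Replicate 1 listed 23.5% of the strong lost and 0.681% of the strong new sites, with 6.58% and 3.00% after moving. Replicate 2 listed 91.3% of the strong lost and 19.1% of the strong new sites, with 24.0% and 22.4% after moving. In both, new sites of this strength lay below their moved value, unlike in hnRNPc_50k_noPAGE. Over all new sites replicate 1 listed 0.0853%, with 0.277% after moving, but replicate 2 listed 11.5%, with 9.74% after moving. The choice of new sites as unlisted in crosslinked libraries limits these comparisons as above.

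Lists of other proteins without crosslinking shared part of the new and of the kept sites and, taken as a set, few of the lost ones. The noUV_RBFOX2 libraries listed 30.8% ± 2.41 (SD, n = 2) of strong new sites, with 6.54% after moving, and 2.63% of strong lost sites, with 6.83% after moving. The noUV_hnRNPA1 libraries listed 39.2% ± 3.03 (SD, n = 2) of new sites, with 13.0% after moving, and 15.0% of lost sites, with 15.3% after moving. The strongest lost sites, those named above, were all listed by both noUV_hnRNPA1 libraries. No named new site was listed by both of them. For noUV_hnRNPI the means were 13.9% of new and 2.06% of lost sites, with 4.12% and 3.29% after moving. Of strong kept sites, noUV_RBFOX2 listed 25.7%, noUV_hnRNPA1 39.1% and noUV_hnRNPI 23.2%, with 15.4%, 29.2% and 12.2% after moving. The crosslinked RBFOX2_10k libraries listed 33.1% of new sites, with 14.7% after moving, and 18.8% of lost sites, close to the 18.2% after moving. They listed 48.2% of kept sites, with 35.1% after moving. Sharing of new sites above the moved value was thus also seen in a crosslinked group. RBFOX2 and hnRNPI, also called PTBP1, are splicing regulators with their own sequence preferences.

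**Figure D5:**
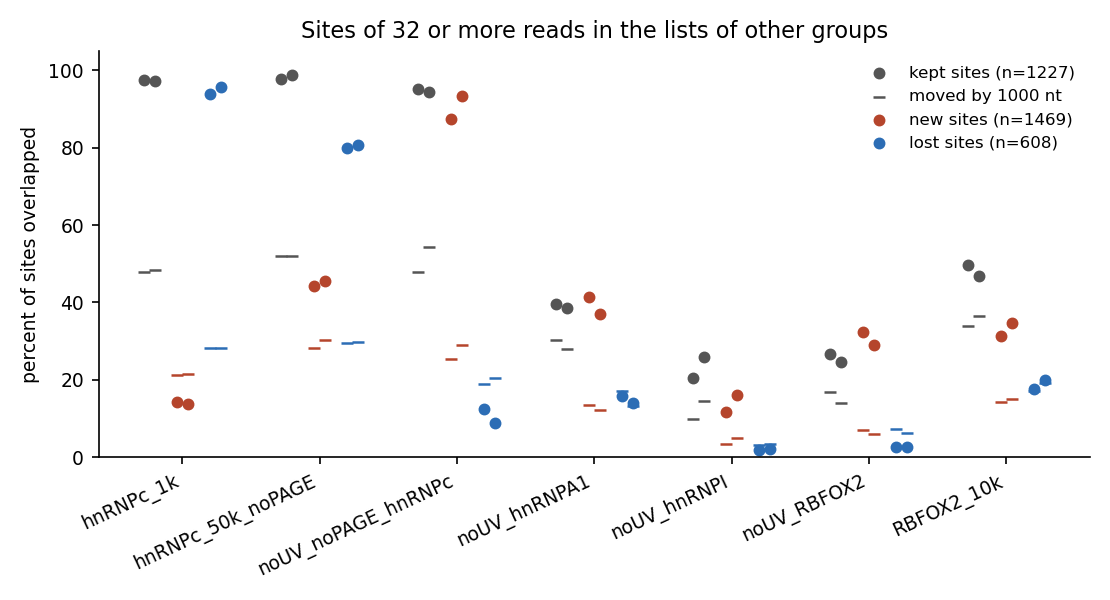
Percent of strong sites (32 or more reads in each defining library) overlapped by each library of 7 other groups; dots are libraries, dashes the same sites moved by 1000 nt. Lost sites (blue) reached 94.7% in hnRNPc_1k and 10.7% in noUV_noPAGE_hnRNPc, and new sites (red) 14.1% and 90.3%.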

How the data were processed

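The comparison used the deposited peak lists of 4 libraries, and all 68 lists for gene extents and overlaps. Each list has 8 columns and no header. The deposited p-value of each peak is the authors' peak caller's own, with no adjustment stated, and was at most 0.00533 here. Per the file names the caller was CLIPper. The submitters' processing notes name bcl2fastq, STAR 2.7.3a, UMI-tools 1.0.1 and the build hg19, without their roles. The annotation release is not given in the sources used here. Sequencing depth is unknown, so no counting interval was computed.

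A site's level is the highest read number of a peak in it, and a gene's level the sum over its sites. Levels in reads per 1000000 listed reads (RPM) were compared as log2(value + 1) with lmFit and eBayes of limma 3.58.1 in R 4.3.3, with Benjamini-Hochberg adjustment over all features with a mean of at least 10 listed reads and a threshold of 0.05. The step was tested on simulated data. Sites holding peaks of more than 1 gene identifier (4.10%) were given to 1 of them for positions within genes.

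The members, lists and tests were chosen with earlier results of these data known. Named genes are those with the largest difference among genes that passed and were listed in both libraries of the higher group, 2 per direction. Named sites are the 5 kept, new and lost sites with the highest level in their lowest listing library, 1 per gene. Gene lists by symbol and marker genes were not used, because 0 identifiers matched a name. The classes by extent and the cuts at 32 and 50 reads were chosen after seeing the data. No sequence is given, as no genome of the build was at hand.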

Additional observations from a re-analysis of the deposited data

Results flagged for a closer look

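The same contrast ran the opposite way for RBFOX2 in 2 measures, with every library on its group's side. The difference was not tested, and n was 2 libraries a group. For the log2 number of peaks, libraries without crosslinking minus 10k libraries gave 0.17 for hnRNP C and -2.54 for RBFOX2, a gap of 2.72. For the median number of reads per peak the values were 1 and -1, a gap of 2 reads. Without PAGE, hnRNP C itself went the way of RBFOX2 in both measures. The log2 number of peaks was 17.52 and 18.09 in noUV_noPAGE_hnRNPc against 18.75 and 18.85 in hnRNPc_50k_noPAGE. The median reads per peak were 8 and 9 against 11 and 11. That pair may also differ in preparation batch, as given above. Whether the direction goes with the protein was not tested. In the share of reads in the last 10% of genes, on the mitochondrial genome and in genes under 10 kb, both proteins were higher without crosslinking.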

How the results depend on the processing

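With all 4 libraries 1005 genes and 10229 sites passed. Leaving out 1 library gave 0 genes each time and 0 to 13475 sites. The lone library of a group was then assumed to vary like the other group. A pseudocount of 5 gave 1826 genes, counting sites per gene gave 345 genes (0 of them mitochondrial), and testing all sites with no minimum gave 0 sites (94256 at an unadjusted p below 0.05). With the replicate number as a block, 412 genes and 0 sites passed (13832 sites at an unadjusted p below 0.05). The numbers do not pair the samples: deviations of same-numbered libraries correlated at -0.000289 over genes and 0.00805 over sites, with only 2 pairs. Counts with median scaling, strict peaks or mitochondrial peaks left out stayed within 1.5 times for genes (918 to 1029).

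With only peaks of p below 1e-05, 6819 genes were kept, and 10501 sites were kept, 22028 new and 16679 lost. The log2 difference in peak number was then 0.43 and the median width difference -3 nt. Needing 2 peaks per gene left 113 lost genes. Leaving out 1 library, which leaves a single list to meet for that group, gave 10918 to 11168 kept, 1167 to 1373 new and 651 to 870 lost genes. For sites it gave 35812 to 45367 kept, 54155 to 187293 new and 59887 to 146644 lost. The log2 peak number difference stayed at 0.16 to 0.18, and the width difference at -1 to 1 nt.

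The median difference of genes under 1 kb was -0.13 and of genes over 100 kb 0.091 when sites were counted, and that of genes from 10 to 100 kb was -0.13 with median scaling. For these changes the cause was not tested. The share of lost sites in hnRNPc_1k ranged from 23.2% to 69.2%, and that of new sites from 4.05% to 15.1%. Unknown depth limits what an unlisted site can show.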
